A study of Homo sapiens with 8 samples.

Results

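The clustered protocadherins are the genes of the PCDHA (alpha), PCDHB (beta) and PCDHG (gamma) clusters, which lie side by side on the long arm of chromosome 5. They were defined by annotation, from the gene type protein-coding and the gene name, and no measured value entered that rule, although the set was taken up with earlier results of these data known. The rule gave 53 genes of the 58825 in the deposited table: 15 alpha, 16 beta and 22 gamma genes. PCDHA14, whose name fits the rule, is listed as a pseudogene and was left out. RNA came from BJ, an established line of human skin fibroblasts, in a derivative that the labels name BJ-HRAS and that all groups share. Clones 15 and 54 were wild type (WT). Clones 66 and 69 were knockouts (KO) of SNORA13, a small nucleolar RNA of the H/ACA class. Each clone gave 1 library without (Z)-4-hydroxytamoxifen (4-OHT) and 1 after 7 days of 4-OHT at 100 nM, so that 8 libraries formed 4 groups of 2 clones. The labels name no vehicle, and they do not describe the HRAS construct or how 4-OHT acts on it. Since a genotype is 2 clones, anything that differs between the KO and WT clones besides SNORA13 is part of the genotype comparison, and p-values reflect the spread between clones.

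Clustered protocadherins are cell-surface adhesion proteins of the cadherin superfamily. They bind the same isoforms on a neighbouring membrane, and in neurons each cell switches on its own small selection of them, which gives the cell a surface identity. Every alpha and gamma gene has a variable first exon with its own promoter, spliced to constant exons that all genes of that cluster share and that encode the common cytoplasmic tail. Beta genes have no such constant exons. The C-type genes (PCDHAC1, PCDHAC2, PCDHGC3, PCDHGC4 and PCDHGC5) resemble each other more than their neighbours. Promoter choice is known to involve the DNA-binding protein CTCF, the cohesin ring and DNA methylation of the promoters.

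Most of the promoters carry a conserved element around the letters CGCT, at which CTCF is known to bind. Promoter sequences from RefSeq (GRCh38.p14, 250 bases before to 50 after the start) were matched to 47 of the 53 genes. Windows were found for 15 genes whose values are described in the sections that follow. Those below, all on the plus strand and with the CGCT core in capitals, are a selection. The windows of PCDHB9, PCDHB13, PCDHB16 and PCDHGB2 are not printed.
PCDHA4 (chr5:140806981-140807010): gagccacatgatgtCGCTctttaccacaaa
PCDHB2 (chr5:141094546-141094575): gagacgcggggtggCGCTgcagccttagaa
PCDHB7 (chr5:141172568-141172597): aaaacgcaaggtggCGCTgctggctaaaaa
PCDHB10 (chr5:141192301-141192330): aggccacacggtggCGCTgcaggctaaaga
PCDHB12 (chr5:141208645-141208674): gagacgcgtggtggCGCTgcaggataatat
PCDHB14 (chr5:141223265-141223294): gagacacatggtggCGCTacaggataagac
PCDHGB1 (chr5:141350027-141350056): caacctctgggcgcCGCTgtcgaccaaaag
PCDHGA4 (chr5:141354962-141354991): aagactctgggtgtCGCTgttcaccaatca
PCDHGB5 (chr5:141397865-141397894): ctgactctgggcgcCGCTgttggccaaagt
PCDHGA10 (chr5:141412933-141412962): aggactctgagcgcCGCTgttcacctacta
PCDHGC3 (chr5:141475882-141475911): gggactctgtgtgcCGCTgtcggccaatga
The letters before the core differ between the clusters. Searched on both strands, GATGTCGCT was in 9 of 13 alpha promoters and in 0.105% of all 35116 promoters of this length. GGTGGCGCT was in 13 of 14 beta promoters and in 0.501% of all. GNCGCTGT, which can overlap the other motifs at the core, was in 17 of 20 gamma promoters, in 5 alpha and 1 beta promoter, and in 4.35% of all. CGCT alone was in 12 alpha, 14 beta and 20 gamma promoters and in 70.0% of all, and these motifs were picked after the sequences had been seen.

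The libraries held 22.1 to 24.9 M reads. SNORA13 had 4 to 7 reads in each WT library and 0 in each KO library, where 0 allows up to 3 reads. The 9 fibroblast markers all reached 1 RPKM (reads per kilobase and per M reads, here divided by a scaling factor per library). Their sum was 3930 to 4180 RPKM in WT and 3730 to 3910 in KO without 4-OHT, and 1820 to 1840 in WT and 1700 to 1990 in KO with it. Of the 8 neuron markers 2 reached 1 RPKM, and their sum was 1.37 to 2.67 RPKM without and 2.96 to 4.55 with 4-OHT; ELAVL4 had 0 reads in all libraries. Glia, melanocyte and endothelial markers all stayed below 1 RPKM, and the immune markers summed to 1.19 to 3.88 RPKM. Epithelial markers summed to 488 to 798 RPKM without and 265 to 294 with 4-OHT, nearly all of it KRT18, while KRT5 and KRT14 had 0 reads. RNA of the signal recognition particle took 9.18% to 10.13% of reads without 4-OHT, 9.72% in WT clone 15 with it and 14.77% to 16.1% in the other 3 clones with it. The part of these shifts in the results was not tested.

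The 3 clusters were used very unequally in these fibroblasts. Of the 53 genes, 36 passed the filter on low reads: 14 of 16 beta genes, 21 of 22 gamma genes and, of the 15 alpha genes, PCDHA4 alone. The other 17 had at most 13 reads in any library, and PCDHA13, PCDHAC2 and PCDHB1 had 0 reads in all 8. A level of 1 RPKM was reached in at least 1 library by 11 beta genes, 6 gamma genes and no alpha gene. The highest member in every library was the C-type gene PCDHGC3, at 12.4 to 14.2 RPKM without 4-OHT. It was followed without 4-OHT by PCDHGB7 (5.97 to 7.49 RPKM), PCDHB2 (5.38 to 6.32) and, in WT clone 54 alone at such a level, PCDHGB5 (6.3). In the map of levels by library these genes stand out as bright rows in a field of genes near the floor.

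**Figure D1:**
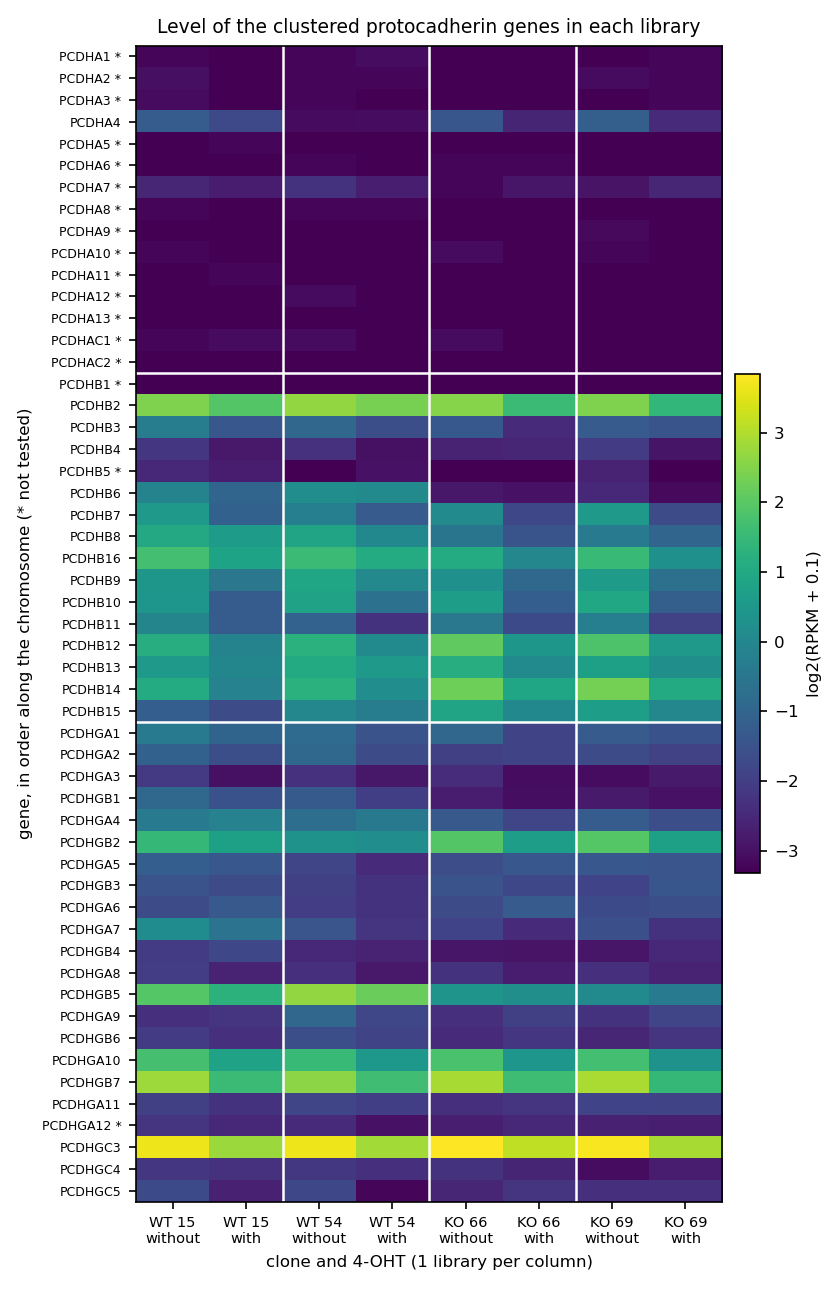
Heat map of the 53 genes (rows, in chromosome order, with lines between the alpha, beta and gamma clusters) in the 8 libraries (columns, by clone and 4-OHT), coloured by log2(RPKM + 0.1); an asterisk marks the 17 genes not tested. PCDHGC3 is the brightest row in all libraries, the alpha rows are dark except PCDHA4 and PCDHA7, and PCDHB6 is dark in the KO columns.

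Alpha and gamma genes share constant exons of 2181 bases or more, and beta genes share at most 432 bases with another gene. That some alpha genes had 0 reads shows that reads in the constant exons were not counted for every gene, so the RPKM of alpha and gamma genes, whose length includes those exons, is too low beside that of beta genes. Gamma genes made up 54.1% to 63.1% of the summed RPKM of the clusters, and 63.6% to 71.5% when reads were divided by unshared exon length. Counting by strand is not stated in the sources used here, and 19 members, among them PCDHB2, PCDHB7, PCDHB10, PCDHB16 and PCDHGB1, overlap exons of an antisense gene; for these, reads of both strands may be mixed. Beta genes are also close copies of each other, and reads in stretches they share could be split between them or lost.

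Summed over a cluster, levels with 4-OHT were lower than without it in every clone. The beta sum was 22.7 and 24.4 RPKM in WT clones 15 and 54 without 4-OHT and 11.9 and 15.2 with it. In KO clones 66 and 69 it was 25.6 and 26.2 without and 10.3 and 11 with 4-OHT. The ratio with over without was 0.526 and 0.623 in the WT clones and 0.402 and 0.418 in the KO clones. The gamma sum was 34.1 and 32.7 RPKM in WT and 32.3 and 31.4 in KO without 4-OHT, and 19.0 and 19.5 in WT and 17.7 and 15.8 in KO with it. Its ratios were 0.556 and 0.596 in WT and 0.548 and 0.503 in KO. The alpha sum was 0.197 to 0.469 RPKM without and 0.102 to 0.273 with 4-OHT, from 12 to 60 reads per library, with ratios of 0.583 and 0.521 in WT and 0.339 and 0.422 in KO. In each cluster both KO ratios lay below both WT ratios, narrowly so for gamma; per kb of unshared exon the order turned for alpha, with 0.546 and 0.512 in WT and 0.56 and 0.767 in KO. These sums have no test. In bulk RNA, fewer cells with a gene switched on and less RNA per cell cannot be told apart.

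**Figure D2:**
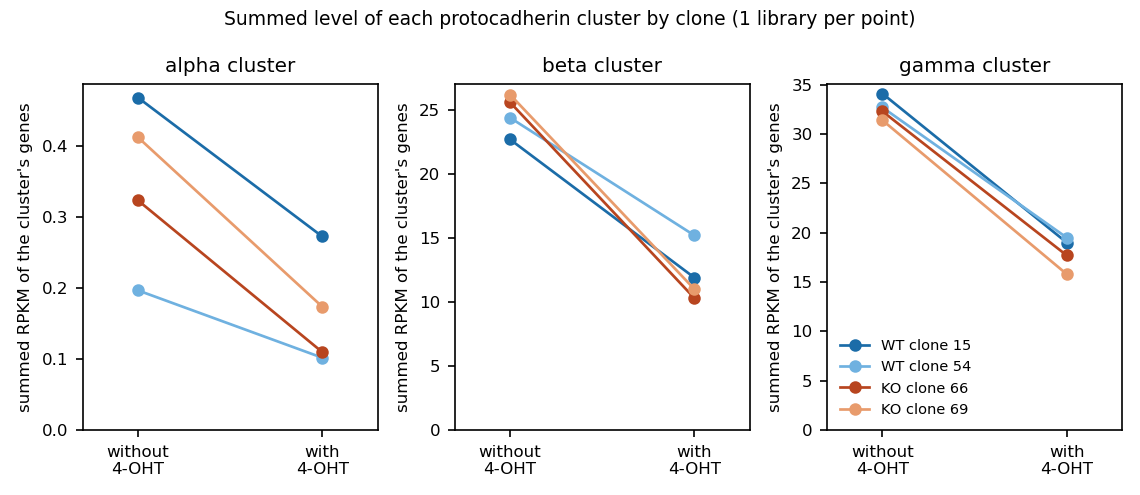
Summed RPKM (vertical axes from 0, a scale of its own in each panel) of the alpha, beta and gamma genes without and with 4-OHT; each point is 1 library and each line 1 clone. All lines slope down, and the KO lines of the beta cluster go from above the WT lines, at 25.6 and 26.2 RPKM, to below them, at 10.3 and 11.

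In the 4-OHT comparison, most of the members that fell were beta genes. With limma and an adjusted p under 0.05, 6 of 14 tested beta genes fell in WT and 10 of 14 in KO, and none rose in either. Over all 36 tested members, 10 (27.8%) fell in WT, where 23.6% of all 16544 tested genes fell, so the WT count in this fit stands near the background. In KO 14 (38.9%) fell beside 26.9% of all genes. With the clone as a replicate block 14 members fell in WT and 16 in KO, and the share of all genes in that fit is not given here. No member rose, while 25.3% of all genes rose in WT and 28.7% in KO. The median log2 difference of the 14 beta genes was -0.76 in WT and -1.08 in KO, and that of the 21 gamma genes was -0.55 and -0.17; over all genes it was 0 in both. Direction alone gave a similar picture: 13 of 14 beta genes and 9 of 21 gamma genes were lower with 4-OHT in all 4 clones (22 members, 61.1%, beside 32.1% of all genes), and none was higher in all 4 (32.4% of all genes). The 12 members whose 4 libraries without 4-OHT all lay above the 4 with it made up 33.3%, beside 24.6% of all genes; the reverse order held for 0 members and 25.2% of all genes.

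PCDHB10 and PCDHB7 are adhesion isoforms from the middle of the beta cluster. PCDHB10 stood at 1.26 and 1.64 RPKM in WT clones 15 and 54 and at 1.5 and 1.81 in KO clones 66 and 69 without 4-OHT, and at 0.326, 0.554, 0.344 and 0.348 in the same order with it. The 4 libraries with 4-OHT were all below the 4 without it. The log2 difference was -1.54 ± 0.27 (SE) in WT (limma adjusted p = 0.00247) and -1.97 ± 0.27 in KO (adjusted p = 0.000599). PCDHB7 was at 1.33, 0.744, 0.957 and 1.37 RPKM without and 0.37, 0.315, 0.192 and 0.214 with 4-OHT, again with no overlap. Its log2 difference was -1.31 ± 0.31 in WT (adjusted p = 0.00966) and -2.04 ± 0.31 in KO (adjusted p = 0.00101).

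PCDHB12 and PCDHB14, near the far end of the beta cluster, fell with small standard errors in both genotypes. PCDHB12 was at 2.12, 2.27, 4.16 and 3.48 RPKM without and 0.825, 0.969, 1.27 and 1.34 with 4-OHT, a log2 difference of -1.21 ± 0.16 in WT (adjusted p = 0.000763) and -1.47 ± 0.16 in KO (adjusted p = 0.000217). PCDHB14 was at 2.03, 2.3, 4.71 and 4.93 RPKM without and 0.807, 1.05, 1.79 and 1.98 with it. For both genes the KO libraries lay above the WT libraries at each treatment, and every library with 4-OHT lay below every library without it. The PCDHB14 difference was -1.15 ± 0.16 in WT (adjusted p = 0.00104) and -1.31 ± 0.16 in KO (adjusted p = 0.000415). Both promoters, shown above, hold the beta motif GGTGGCGCT, as do 13 of the 14 beta promoters searched.

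PCDHB9 and PCDHB16 were the other beta genes that fell in both genotypes. PCDHB9 went from 1.29, 1.78, 1.11 and 1.43 RPKM to 0.621, 0.939, 0.431 and 0.519 (log2 differences -0.90 ± 0.27 in WT and -1.25 ± 0.27 in KO, adjusted p = 0.027 and 0.00576). PCDHB16 went from 3.13, 2.85, 2.0 and 2.73 RPKM to 1.68, 2.0, 0.887 and 1.11 (-0.67 ± 0.20 and -1.16 ± 0.20, adjusted p = 0.0276 and 0.00215). For PCDHB16 the KO clone 66 library without 4-OHT and the WT clone 54 library with it held the same 2.0 RPKM, so its groups with and without 4-OHT met. The WT calls of PCDHB9, PCDHB16 and PCDHB7 were each lost without at least 1 of the WT libraries.

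PCDHB2, the beta gene of the highest level, was called in KO. Its level was 5.42, 6.32, 5.71 and 5.38 RPKM in clones 15, 54, 66 and 69 without 4-OHT and 3.69, 5.02, 2.83 and 2.59 with it. The log2 difference was -1.01 ± 0.16 in KO (adjusted p = 0.00139) and -0.43 ± 0.16 in WT (adjusted p = 0.0591, and 0.0231 with the clone as a replicate block). The difference between those responses, -0.57 ± 0.23, did not pass the test (adjusted p = 0.172). PCDHB11 (log2 difference -1.48 ± 0.43), PCDHB13 (-0.78 ± 0.28) and PCDHB8 (-0.76 ± 0.27) were likewise called lower in KO, at adjusted p of 0.0207, 0.0453 and 0.0448. The KO calls of PCDHB11 and PCDHB13 were lost without any 1 of the KO libraries, and that of PCDHB8 without any of them but the treated clone 69 library. In WT, PCDHB11 was at -1.18 ± 0.43 (adjusted p = 0.0545), and 0.00988 with the block. PCDHB3, PCDHB4, PCDHB6 and PCDHB15, with differences of -0.85 to -0.37 across both genotypes, passed in neither; with the clone as a replicate block PCDHB15 passed in KO (-0.76 ± 0.21, adjusted p = 0.024).

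Of the 21 tested gamma genes, 4 fell in WT and 4 in KO, 3 of them in both. That is 19% in each genotype, below the 23.6% and 26.9% of all tested genes that fell. Only 6 gamma genes reached 1 RPKM in any library, and the log scale used here understates the change of the others. The C-type gene PCDHGC3 was at 12.4, 12.6, 14.2 and 13.6 RPKM without 4-OHT and 6.68, 7.13, 8.72 and 7.35 with it, and its groups did not overlap. It fell by 0.85 ± 0.10 on the log2 scale in WT (adjusted p = 0.000438) and by 0.79 ± 0.10 in KO (adjusted p = 0.00045). PCDHGB7, a B-type variable isoform near the 3' end of the variable exons, went from 6.86, 5.97, 7.33 and 7.49 RPKM to 2.83, 3.05, 2.99 and 2.61. Its differences were -1.10 ± 0.12 in WT (adjusted p = 0.000294) and -1.38 ± 0.12 in KO (adjusted p = 7.32e-05), the smallest p of any member. PCDHGA10, its neighbour among the A-type isoforms, went from 3.18, 2.74, 3.33 and 3.14 RPKM to 1.64, 1.3, 1.25 and 1.17 (-0.96 ± 0.16 and -1.35 ± 0.16, adjusted p = 0.00225 and 0.000343). In these genes all 4 libraries with 4-OHT lay below all 4 without it.

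PCDHGB2 fell in KO, from 3.69 and 3.75 RPKM to 1.52 and 1.59 (-1.21 ± 0.35, adjusted p = 0.0204), a call lost without any 1 of the KO libraries. In WT its clones differed, at 2.64 and 1.59 RPKM in clone 15 and 1.18 and 1.05 in clone 54 (-0.43 ± 0.35, adjusted p = 0.346). PCDHGC5, a C-type gene of low level, fell in WT, with 23 and 21 reads without 4-OHT and 7 and 1 with it. The log2 difference was -1.18 ± 0.25 (adjusted p = 0.00625). It was -0.21 with a pseudocount of 1, -2.51 with a pseudocount of 0.01 and -2.71 with limma-voom. The call was lost with no filter. In KO PCDHGC5 had 8 and 11 reads without and 12 and 11 with 4-OHT (0.18 ± 0.25, adjusted p = 0.558). The remaining 16 tested gamma genes passed in neither genotype, but with the clone as a replicate block PCDHGA7 (-0.77 ± 0.22, adjusted p = 0.0338) and PCDHGB5 (-0.57 ± 0.17, adjusted p = 0.0343) passed in WT. In KO 9 gamma genes, all of low level, had differences above 0, from 0.01 in PCDHGC4 to 0.42 in PCDHGA9. PCDHGA4 was the gamma gene with the most positive difference in WT, at 0.676 and 0.504 RPKM without and 0.799 and 0.639 with 4-OHT (0.25 ± 0.24, adjusted p = 0.419).

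**Figure D3:**
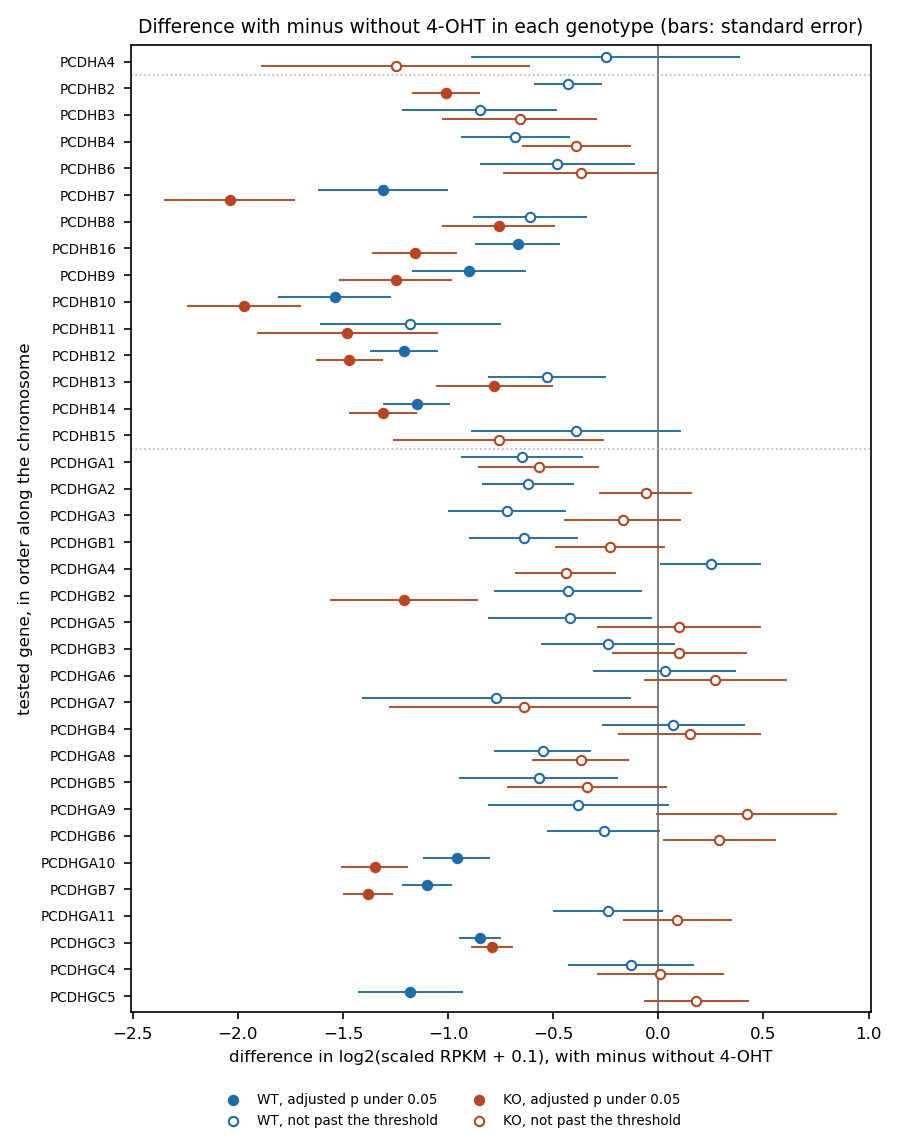
Log2 difference with minus without 4-OHT (horizontal axis, on log2(scaled RPKM + 0.1)) of each tested member in chromosome order, in WT (blue) and KO (orange-red), with standard errors; filled points passed an adjusted p of 0.05. All beta points lie left of 0 in both genotypes, whereas 9 gamma points lie right of 0 in KO.

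The KO response and the WT response were compared gene by gene. No member passed the test of the difference of responses (limma), where 7.44% of all genes did. At an unadjusted p under 0.05 there were 2 members, and limma-voom called PCDHGC5 alone. PCDHGC5 came nearest in the test used here, with a difference of 1.36 ± 0.35 on the log2 scale (adjusted p = 0.0619, and 0.0335 with limma-voom). By sign, 11 of 14 beta genes had the lower value in the KO response and 17 of 21 gamma genes the higher. The median difference of responses over all genes was -0.01, and these counts have no test. Only 6 gamma genes reached 1 RPKM in a library, and the log scale understates the change of low genes. In the gamma sums both KO ratios, 0.548 and 0.503, lay below the WT ratios of 0.556 and 0.596.

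Between genotypes, a few members stood far apart and did so at both treatments. Without 4-OHT, 2 members were higher and 4 lower in KO (5.56% and 11.1% of the 36, beside 2.6% and 3.73% of all genes). With 4-OHT, 1 was higher and 7 lower (2.78% and 19.4%, beside 6.69% and 7.66%). PCDHB6, PCDHB8, PCDHGB1 and PCDHGB5 were lower and PCDHB14 higher in KO at both treatments. In 5 members, those 4 and PCDHGA4, all KO libraries lay below all WT libraries (13.9%, beside 2.65% of all genes), and in none did all KO libraries lie above (2.21% of all genes). These calls depended on single libraries: each was lost in at least 1 fit that left out a KO library of that treatment. Such a fit leaves 1 library in a group. Its calls are therefore not counted here, and the share of all genes in it is not given.

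PCDHB6 showed the widest gap. It had 64 and 78 reads in WT clones 15 and 54 and 3 and 6 in KO clones 66 and 69 without 4-OHT, and 33, 70, 2 and 1 with it. In RPKM these are 0.822, 1.05, 0.038 and 0.0745, then 0.402, 0.976, 0.0277 and 0.013. The KO libraries were thus near the floor at both treatments. The KO minus WT difference was -2.73 ± 0.37 on the log2 scale without 4-OHT (adjusted p = 0.0122) and -2.61 ± 0.37 with it (adjusted p = 0.00874).

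PCDHGB5, a B-type gamma gene, was at 3.75 and 6.3 RPKM in WT and 1.21 and 0.983 in KO without 4-OHT, and at 2.35 and 4.5 in WT and 1.07 and 0.658 in KO with it. WT clone 54 was the highest library at each treatment. The KO minus WT difference was -2.06 ± 0.38 (adjusted p = 0.0261) and -1.84 ± 0.38 (adjusted p = 0.022). PCDHGB1, which lies upstream of it in the cluster, had 46 and 32 reads in WT and 5 and 5 in KO without 4-OHT, and 29, 15, 2 and 3 with it (-1.67 ± 0.26 and -1.26 ± 0.26, adjusted p = 0.0165 and 0.0213). PCDHGA4, next to PCDHGB1, was lower in KO with 4-OHT, at 0.18 and 0.231 RPKM against 0.799 and 0.639 in WT (-1.42 ± 0.24, adjusted p = 0.0121). Without 4-OHT it was at 0.303 and 0.322 against 0.676 and 0.504 (-0.73 ± 0.24, adjusted p = 0.112).

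PCDHB8, next to PCDHB7, was at 1.9 and 1.71 RPKM in WT and 0.589 and 0.666 in KO without 4-OHT, and at 1.44, 0.914, 0.264 and 0.403 with it. Its differences were -1.39 ± 0.27 (adjusted p = 0.0316) and -1.54 ± 0.27 (adjusted p = 0.0137). PCDHB14, whose values are given above, was higher in KO by 1.12 ± 0.16 without 4-OHT (adjusted p = 0.0144) and by 0.96 ± 0.16 with it (adjusted p = 0.0129). PCDHB12 was higher in KO without 4-OHT by 0.77 ± 0.16 (adjusted p = 0.0389) and with it by 0.50 ± 0.16 (adjusted p = 0.0832). With 4-OHT alone, PCDHB2 (-0.65 ± 0.16, adjusted p = 0.0384) and PCDHB16 (-0.82 ± 0.20, adjusted p = 0.0375) were lower in KO.

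**Figure D4:**
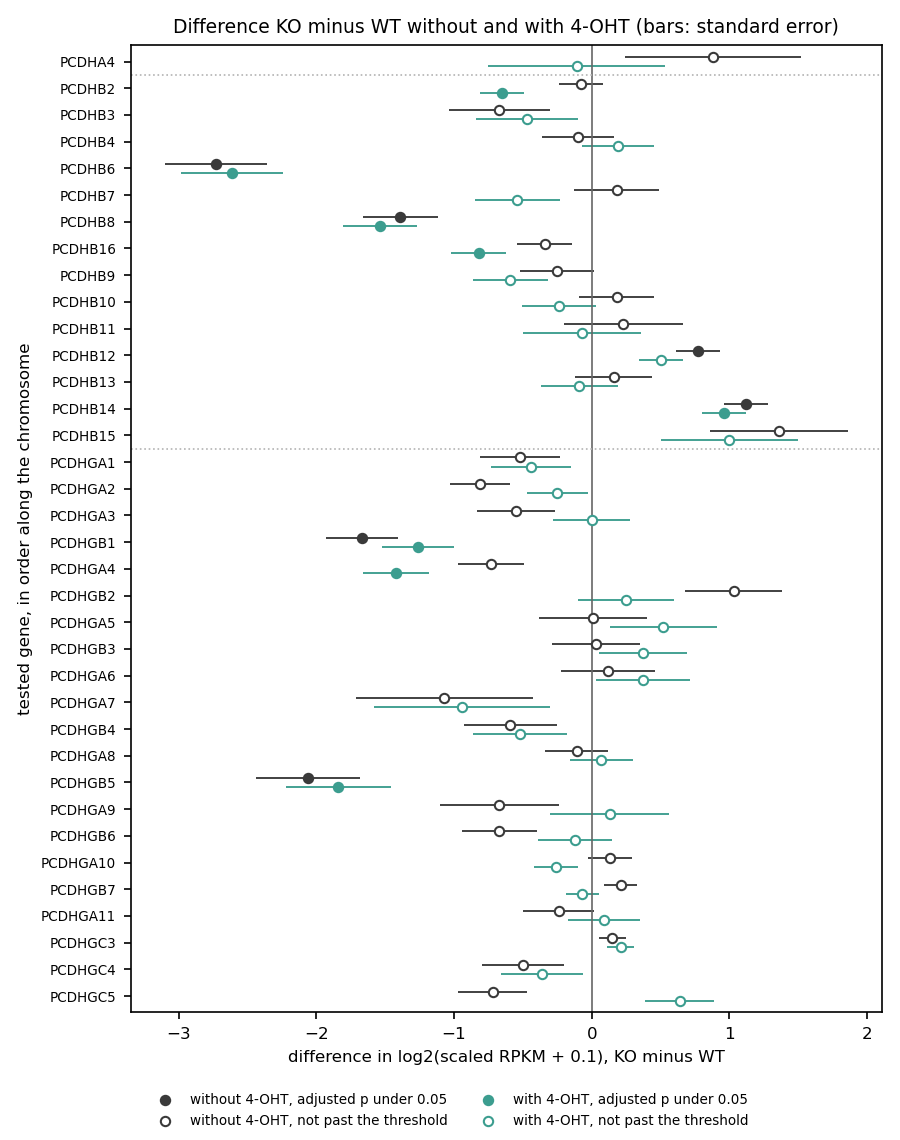
Log2 difference KO minus WT (horizontal axis, on log2(scaled RPKM + 0.1)) of each tested member in chromosome order, without (dark grey) and with (green) 4-OHT, with standard errors; filled points passed an adjusted p of 0.05. PCDHB6, PCDHB8, PCDHGB1 and PCDHGB5 are filled on the left at both treatments, and PCDHB14 on the right.

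Some of the widest differences were between clones of the same genotype. PCDHA4, the only alpha gene tested, had 42 reads in WT clone 15 and 2 in WT clone 54 without 4-OHT (exact Poisson 95% intervals 30.3 to 56.8 and 0.242 to 7.22, covering counting error only), and 27 and 2 with it. KO clones 66 and 69 had 36 and 46 reads without and 8 and 10 with 4-OHT. WT clone 54 was thus low at both treatments, and no contrast of groups passed, although with the clone as a replicate block the KO response did (-1.25 ± 0.25, adjusted p = 0.00786). In that clone PCDHA7, with 13 reads without 4-OHT and 6 with it, was the largest alpha gene instead.

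PCDHGA7 was high in WT clone 15, at 1.02 RPKM without and 0.56 with 4-OHT, and lay between 0.0856 and 0.267 in the other 6 libraries. PCDHB15 was low in WT clone 15, at 0.338 and 0.22 RPKM, against 0.904 and 0.7 in WT clone 54 and 0.898 to 1.72 in the KO clones. PCDHB11 was at 0.849 and 0.322 RPKM in WT clone 15 against 0.376 and 0.108 in WT clone 54. For PCDHGA7, PCDHA4 and PCDHB15 the clones of WT differed by more than 1 on the log2 scale in the same direction at both treatments.

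Across the 36 tested members, the difference between WT clones 15 and 54 without 4-OHT went with the same difference with 4-OHT (Pearson r 0.86, Spearman rho 0.89). Over all 16544 tested genes the values were 0.31 and 0.23. The SD of those differences was 0.66 without and 0.67 with 4-OHT over the members, and 0.46 and 0.41 over all genes. Between KO clones 66 and 69 the members' differences were small (SD 0.31 and 0.29, all genes 0.32 and 0.34) and did not go together (r 0.03, all genes 0.01). The labels call the clones independent, and how closely clones 66 and 69 are related was not tested; if they share an origin, the p-values of KO comparisons rest on fewer independent clones than counted. The points share their libraries, and members with low reads carry more counting noise, so these values are a description with no test. A difference over 1 on the log2 scale between the WT clones was seen in 5 members (13.9%) without and 6 (16.7%) with 4-OHT, beside 4.35% and 3.32% of all genes. Between the KO clones it was seen in 0 and 1 members.

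**Figure D5:**
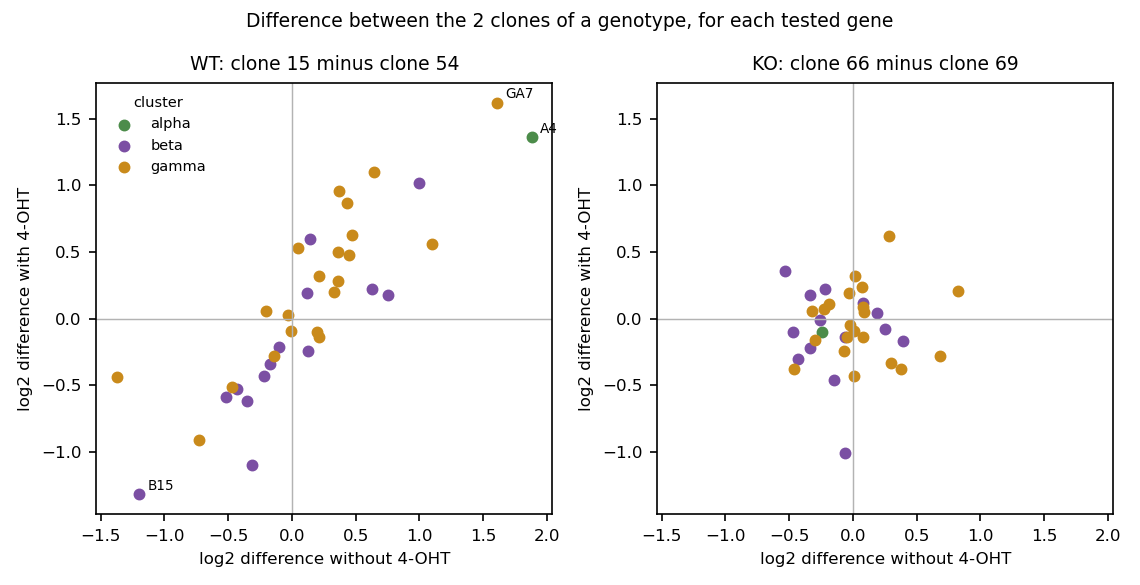
Log2 difference between the clones of a genotype without 4-OHT (horizontal axis) and with 4-OHT (vertical axis); each point is 1 of the 36 tested members, coloured by cluster. In WT (left) the points run along the diagonal with PCDHGA7 and PCDHA4 at one end and PCDHB15 at the other; in KO (right) they gather around 0.

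The share of each isoform in its cluster was compared between treatments. PCDHB2 made up 20.5% to 25.9% of the beta RPKM without and 23.6% to 33.0% with 4-OHT, higher with it in each clone. PCDHGC3 held 36.5% and 38.4% of the gamma RPKM in WT and 44.1% and 43.2% in KO without 4-OHT, and 35.2%, 36.6%, 49.2% and 46.6% with it. PCDHGB5 held 11% and 19.3% in WT and 3.75% and 3.13% in KO without 4-OHT, and 12.4%, 23.1%, 6.02% and 4.17% with it. PCDHGB7 went from 18.3% to 23.8% without to 14.9% to 16.9% with 4-OHT. On log2(RPKM + 0.1), the profile of the 36 members in a library correlated with that of the same clone at the other treatment at r of 0.942 to 0.973. With the other clone of the same genotype at the other treatment it correlated at 0.897 to 0.958, where the highest value, between KO clones 66 and 69, lay above that of either KO clone with itself (0.952 and 0.942). With the other genotype at the other treatment it correlated at 0.827 to 0.87, and with the other genotype at the same treatment at 0.85 to 0.898. On linear shares, which the few high genes dominate, the ranges overlapped. They were 0.932 to 0.99 for the same clone and up to 0.957 for the other genotype, both at the other treatment.

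Genes of CTCF, cohesin, DNA methylation and chromatin, known to act on these promoters or on chromatin at large, were read from a list of 26, all of them tested. In WT, 1 rose and 9 fell with 4-OHT, and in KO 4 rose and 6 fell. Over all tested genes 25.3% rose and 23.6% fell in WT and 28.7% and 26.9% in KO, so the counts in KO were not above the background. RAD21, the cohesin subunit that closes the ring, fell in WT by 0.73 ± 0.08 on the log2 scale (adjusted p = 0.000282), from 44.1 and 43.7 RPKM to 25.1 and 27.7. In KO it was at 34.4 and 37.5 RPKM without and 34.1 and 34.2 with 4-OHT (-0.07 ± 0.08, adjusted p = 0.457), and the difference of responses passed (0.66 ± 0.11, adjusted p = 0.0172). UHRF1, which brings the maintenance DNA methyltransferase to replicated DNA, rose in KO from 6.64 and 5.59 RPKM to 28.4 and 29 (2.22 ± 0.23, adjusted p = 0.000154), and was at 8.76 and 13.8 without and 10.8 and 14.7 with 4-OHT in WT (difference of responses 2.02 ± 0.32, adjusted p = 0.0133). DNMT1, that methyltransferase, rose in KO from 10.3 and 8.81 to 23.7 and 22.7 RPKM (1.28 ± 0.15, adjusted p = 0.000281; difference of responses 1.07 ± 0.21, adjusted p = 0.027). TET1, which oxidises methylated cytosine, fell in WT (-1.25 ± 0.17, adjusted p = 0.000734) and KO (-1.27 ± 0.17, adjusted p = 0.000519). CTCF differed by -0.23 ± 0.11 in WT and -0.16 ± 0.11 in KO and passed in neither (adjusted p = 0.134 and 0.27). Without 4-OHT no gene of the list passed between genotypes. With it 4 of the 26 were higher in KO, among them UHRF1 and RAD21, beside 6.69% of all genes, and 0 were lower, beside 7.66%.

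Protocadherins outside the clusters were read from a list in the same way. Of 19 non-clustered protocadherins and related giant cadherins, 12 were tested. With 4-OHT, 4 rose and 5 fell in WT, beside 25.3% and 23.6% of all genes. In KO 2 rose and 5 fell, beside 28.7% and 26.9%. PCDH10, a delta-protocadherin, fell from 18.1, 23.1, 22.7 and 18.3 RPKM in clones 15, 54, 66 and 69 to 1.64, 2.21, 1.92 and 1.27 (log2 differences -3.36 ± 0.23 and -3.62 ± 0.23, adjusted p = 4.4e-05 and 2.25e-05). PCDH18 rose from 48.7 to 66.8 RPKM over the 4 clones to 128 to 180 (1.43 ± 0.12 in WT and 1.40 ± 0.12 in KO). FAT1 and FAT4, giant cadherins, fell in both genotypes, FAT1 by 0.68 ± 0.09 and 1.47 ± 0.09 and FAT4 by 1.5 ± 0.13 and 1.75 ± 0.13. The difference of responses passed for FAT1 (-0.79 ± 0.13, limma adjusted p = 0.0174) and not for FAT4 (-0.25 ± 0.19, adjusted p = 0.462). Without 4-OHT, FAT1 was higher in KO than in WT (0.55 ± 0.09, adjusted p = 0.0219). Of 14 classical cadherins and catenins, 10 were tested. In WT 3 fell and none rose, beside 23.6% and 25.3% of all genes. In KO 6 fell and 1 rose, beside 26.9% and 28.7%. The neural cadherin CDH2 was at 77.1, 44.0, 93.8 and 98.3 RPKM without and 3.89 to 4.69 with 4-OHT.

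Of 18 genes for signalling partners of the protocadherin tail, such as the kinases PTK2, PTK2B and FYN and the WAVE complex, 7 rose and 6 fell in WT and 5 rose and 7 fell in KO. Of all tested genes 25.3% rose and 23.6% fell in WT and 28.7% and 26.9% in KO, and nothing is read from the counts of this list. FYN rose by 1.13 ± 0.08 in WT and 0.97 ± 0.08 in KO, and PTK2B fell by 2.46 ± 0.26 and 1.95 ± 0.26. Of 20 genes that flank the clusters on 5q31, 19 were tested: 4 rose and 4 fell in WT, and 4 rose and 2 fell in KO, with a median log2 difference of 0.04 and 0.08 and counts below those shares. HARS, on the alpha side, rose by 1.09 ± 0.11 in WT and 0.94 ± 0.11 in KO, and DIAPH1, on the gamma side, by 0.71 ± 0.11 and 0.91 ± 0.11. Between genotypes, 0 of the 19 were higher and 1 lower in KO without 4-OHT, beside 2.6% and 3.73% of all genes. With 4-OHT 0 were higher and 4 lower, beside 6.69% and 7.66%, so the count of lower genes lay above its share. Of 6 pseudogenes inside the clusters 4 were tested; PCDHB18P fell in both genotypes (-0.95 ± 0.24 and -0.66 ± 0.24, adjusted p = 0.0138 and 0.0499) and PCDHB19P in WT (-0.86 ± 0.27, adjusted p = 0.0316).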

How the data were processed

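The 53 members and the gene lists were chosen with earlier results of these data known. The authors deposited 1 table of RPKM values (reads per kilobase and per M reads) for 58870 rows and 8 libraries. Per the submitters' processing notes, the tools were STAR, featureCounts and edgeR and the build GRCh38. No version, role or strand setting is stated in these notes. Per the file headers, a column is a clone number that may carry a minus sign; the minus was taken to mean 4-OHT negative, which no label spells out. The 45 rows of pseudoautosomal Y copies were left out.

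RPKM values were turned into whole reads with GENCODE release 29 transcript lengths and 1 total per library. For genes with a listed length, 100.0% of the non-zero values were whole within 0.1 read; for 6676 genes the length was inferred from their own values. Totals were 22.1 to 24.9 M reads, so that 1 read in 1 kb is worth 0.0401 to 0.0453 RPKM. RPKM was divided by trimmed-mean factors (0.9399 to 1.0351), and these scaled values are printed. The filter asked for 10 reads, scaled to the median library size, in 2 or more libraries and for 15 reads in all (16544 genes). The test was limma 3.58.1 (R 4.3.3) on log2(scaled RPKM + 0.1), 4 group means over 8 libraries, 4 residual degrees of freedom, with trend and robust moderation, two-sided, Benjamini-Hochberg adjusted over all 16544 genes at a threshold of 0.05. This log scale understates the change of low genes. The script was tested on simulated data.

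The contrasts were 4-OHT in WT, 4-OHT in KO, KO minus WT at each treatment, and the difference of responses. Full values are given for members that reach 1 RPKM in a library or are called in a contrast; of each related list, up to 4 genes with the smallest p in a contrast are named, and CTCF, KRT18 and genes at 0 reads were added after their values were seen. Libraries of the same clone come from the same line, so the clone number pairs them across treatment: over all tested genes the difference between the clones of a genotype without 4-OHT correlated with that with 4-OHT at 0.309 in WT and 0.005 in KO. Alternatives were library size alone, pseudocounts of 1 and 0.01, no filter, limma-voom on the recovered reads, only the 4 libraries compared, leaving out each library, the clone as a replicate block, other cluster sums and other measures of likeness.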

Additional observations from a re-analysis of the deposited data

How the results depend on the processing

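No called member changed direction under any alternative run for its contrast. Of the 10 members called in the WT response, PCDHB10, PCDHB12, PCDHB14, PCDHGA10, PCDHGB7 and PCDHGC3 kept the call under all 11 alternatives, and of the 14 in KO these 6 and PCDHB2, PCDHB7, PCDHB9 and PCDHB16 did. With the clone as a replicate block, 14 members fell in WT (all 10 among them), 16 in KO (all 14 among them) and 0 passed the difference of responses. The share of all genes called in that fit is not given here, so the gains are not set against a background. The calls gained are given in the text. No call between genotypes survived all alternatives: without 4-OHT, members higher and lower in KO numbered 1 and 0 with no filter and 1 and 1 with only the 4 libraries compared, and with 4-OHT the members lower numbered 2 with no filter. Each call between genotypes was lost in at least 1 fit that left out a KO library, where 1 library remained in a group. The difference of responses had 1 member with limma-voom and 0 to 1 when each library was left out. The mean ratio of the alpha cluster with over without 4-OHT moved from 0.466 to 0.596 per kb of unshared exon, an alternative chosen after seeing the data; the beta (0.492) and gamma (0.551) ratios moved by less than their spread. The median likeness of a clone to itself moved from 0.954 to 0.968 on linear shares and 0.933 by Spearman's rho (the latter also chosen after seeing the data), that to the other clone of its genotype from 0.918 to 0.817 on linear shares, and that to the other genotype from 0.84 to 0.795 by Spearman's rho. For each of these shifts the cause was not tested. At 0 to 13 reads, differences in most alpha genes were not detectable at this depth.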
